A study of Mus musculus with 32 samples.

Results

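The comparison described here was *Mtm1* KO against WT skeletal muscle at postnatal day 35 (P35), the oldest age sequenced. Its members were chosen by their labels alone (genotype and an age of 35 days) and were 8 of the 32 RNAseq libraries of the series, 4 WT and 4 KO. The study followed KO and WT mice on the C57BL6/J background at 4 ages to see when and how the muscle transcriptome departs from WT. The muscle was the tibialis anterior (TA), a fast limb muscle of the shin, the KO line carries a deletion in exon 4 of *Mtm1*, and the labels give no treatment for either group. The allele was first made in 129 mice and had been bred onto C57BL6/J. The labels do not state that each library came from its own mouse, and the methods give *n*=4 per genotype without naming mice, so *P*-values here measure the spread between libraries.

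*Mtm1* lies on the X chromosome and encodes myotubularin, a phosphatase that removes a phosphate from phosphoinositide lipids of endosomes. Its loss causes X-linked myotubular myopathy, in which muscle fibres stay small with central nuclei, the triads that couple membrane excitation to calcium release are disorganised, and mitochondria are misplaced. Skeletal muscle fibres are known to change their gene programmes with nerve activity and load, and these programmes include slow and fast contractile isoforms, embryonic isoforms, receptors of the neuromuscular junction and enzymes of energy supply.

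Exon 4 is shown because the deletion in it defines the KO group. In the GENCODE annotation of GRCm38, exon 4 of the 15-exon transcript lies at chrX:71234852-71234946, + strand, and its 95 bases leave a remainder of 2 when divided by 3, so that a loss of all of them would shift the reading frame. The numbering of the allele was taken to be that of this transcript.
*Mtm1* exon 4: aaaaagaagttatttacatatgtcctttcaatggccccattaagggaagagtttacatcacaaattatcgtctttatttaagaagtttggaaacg

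*Mtm1* was at 18.4, 17.6, 21.3 and 18.2 CPM (WT) against 3.23, 3.45, 2.88 and 3.27 CPM (KO). No KO library came near a WT library (log2 fold change -2.56, SE 0.0992, adjusted *P*=1.83e-06), and the reads that remained in KO were counted over the whole gene, so they do not show which exons they came from. CPM are counts scaled by library size and TMM factor, and a log2 fold change of 1 is a 2-fold difference of KO over WT. Of the partners in centronuclear myopathy, *Dnm2*, encoding the membrane-cutting GTPase dynamin 2, was at 34.3, 39.2, 40.6 and 39.0 CPM (WT) against 39.1, 43.0, 43.0 and 44.2 CPM (KO) and was not called (log2 fold change 0.15, adjusted *P*=0.145). *Bin1*, encoding amphiphysin 2, which bends membranes into T-tubules, was at 514, 492, 363 and 497 CPM (WT) against 714, 593, 919 and 896 CPM (KO) (log2 fold change 0.74, adjusted *P*=0.00598). WT replicate 3 was lower than the other WT libraries, and in 7 of the 8 fits that left out 1 library the call was lost, with an adjusted *P* of up to 0.0214 without KO replicate 3. Of the other genes of the list of centronuclear myopathy partners and dynamins, *Cav3* (caveolin of the muscle membrane, 0.77) and *Pacsin3* (an F-BAR protein that binds dynamin, 0.68) rose and *Itsn1* (an endocytic scaffold, -0.75) fell on the log2 scale. In the whole list 3 of 20 rose and 2 fell (7 and 0 with library totals). Among phosphoinositide phosphatases and kinases, *Mtmr10* (-0.84), a catalytically inactive relative of myotubularin, and *Pik3c2a* (-0.72), a class II kinase, fell beside *Mtm1*, and 1 of 31 members rose and 3 fell (4 and 1 with library totals).

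The libraries held 55211186 to 59697932 expected counts in WT and 58423499 to 65108067 in KO, and 14889 to 15109 genes in WT and 15730 to 16387 in KO reached 10 counts. The 10 most abundant nuclear genes took 17.4% ± 1.29 of counts in WT and 13.9% ± 1.23 in KO (SD, *n*=4, exact permutation test, two-sided, *P*=0.0286, the smallest that 70 assignments allow). *Gm28437* and *Gm10925* of these 10 are copies of mitochondrial genes described below, and without them the share was 14.0% ± 1.73 in WT and 11.7% ± 1.27 in KO, where the groups overlapped (exact permutation test, two-sided, *P*=0.114). The scaling of the libraries moved the fold changes. With TMM all genes had a median of 0.035 in log2 fold change and 53% of differentially expressed genes (DEGs) were higher, whereas with plain library totals the median was 0.439 and 93.0% were higher. RLE, upper quartile scaling and TMM without mitochondrially encoded genes gave medians of 0.019, 0.077 and 0.028 and 50.7%, 59.4% and 52.0% of DEGs higher. Values below use TMM, and differences are to be read against the median of all genes.

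Of 15595 genes tested, 2496 were DEGs (16%) at an adjusted *P* under 0.01 and a change of over 1.5-fold. Of these, 1324 were higher (8.49%) and 1172 lower (7.52%) in KO. The counts of the gene lists below are to be read beside these shares. The rises were larger than the falls, with 769 genes up and 388 down by over 2-fold, and 265 up and 75 down by over 4-fold. The libraries of the groups did not overlap for 2470 of the 2496 DEGs, beside 39.6% of all genes tested. Within KO, replicate 3 was the highest of the 4 libraries for 570 of the higher DEGs and the lowest for 492 of the lower DEGs, and replicate 1 was the lowest for 580 and the highest for 423, so these libraries marked the wide and the narrow end of the difference. Of the 421 DEGs in the gene lists and naming rules used here, 299 kept their call in all 8 fits that left out 1 library, and those that did not are marked where they are described. List members named beyond those the naming rule gives were chosen after their values were seen. Some genes, such as *Myh3*, *Cdkn1a* and *Cav3*, are on more than 1 list, so the lists are not independent of each other.

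**Figure D1:**
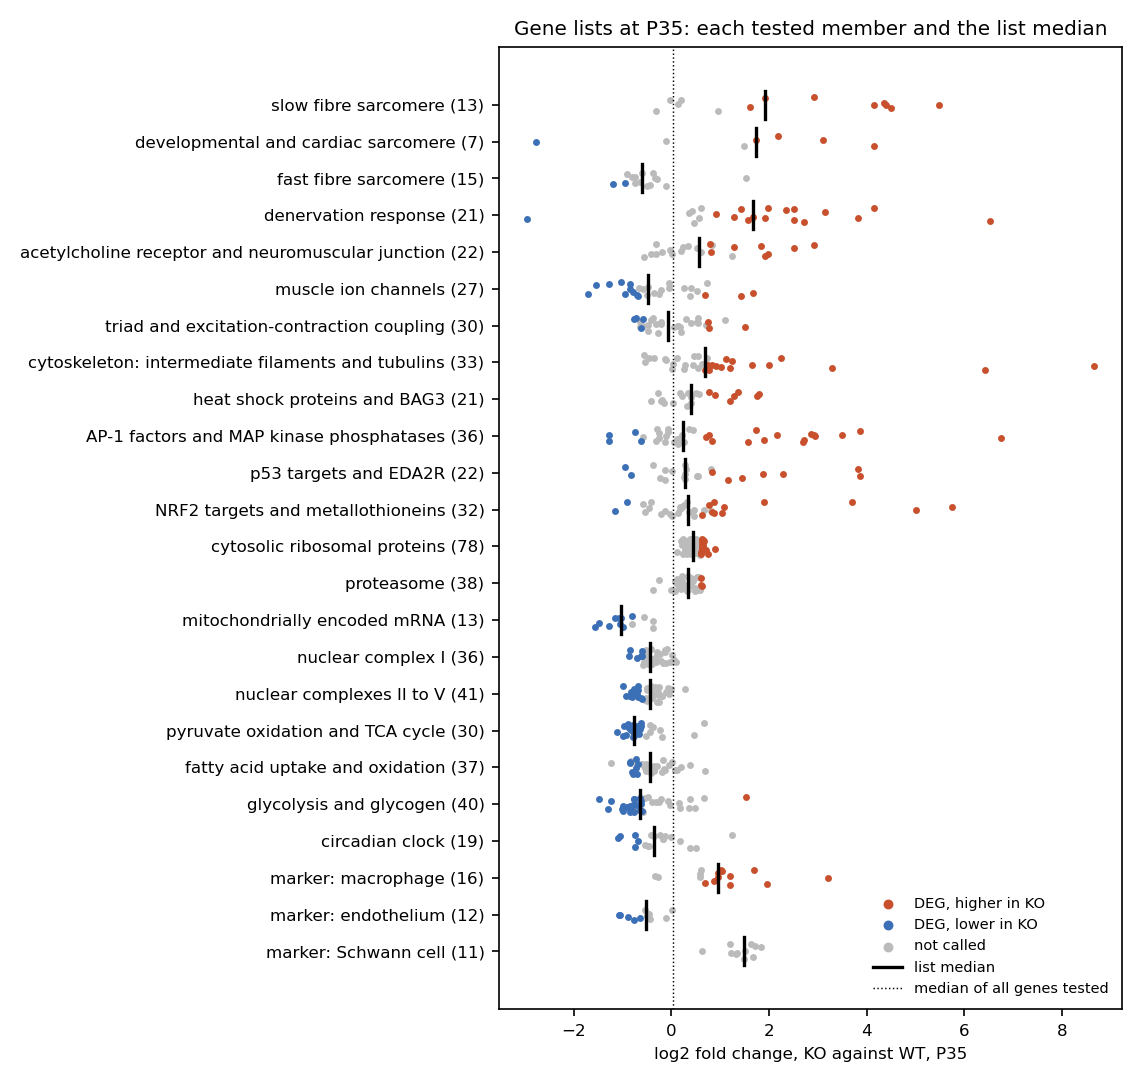
Log2 fold change of KO against WT at P35 for each tested member of 24 gene lists (number tested in brackets). DEGs are in colour, with the list median as a bar and the median of all genes (0.035) as a dotted line. The 24 lists were chosen from 52, and those left out include lists with medians near that of all genes. The slow fibre list has the bar at 1.92 and the pyruvate oxidation and TCA cycle list at -0.76. With library totals the median of all genes is 0.439, and the bars of the triad and circadian clock lists, both negative here, become positive (0.33 and 0.048).

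Most slow contractile genes rose in KO. Of 13 members tested, 8 rose and 0 fell, with a median log2 fold change of 1.92 (2.34 with library totals). *Myh7b* (0.95), *Casq2* (0.19), *Actn2* (0.13), *Myl3* (-0.018) and *Mybpc1* (-0.31) were not called, and the sum over the list overlapped, at 4673 to 5466 CPM in the WT libraries and 4571 to 7763 in KO. *Myh7*, the slow and cardiac myosin heavy chain, was at 3.54, 24.9, 4.46 and 1.85 CPM (WT) against 304, 637, 376 and 249 CPM (KO). WT replicate 2 was well above the other WT libraries, and every KO library was still above it (log2 fold change 5.49, SE 0.825, adjusted *P*=0.000874). *Tnni1*, encoding slow troponin I, was at 3.40, 4.88, 3.86 and 3.58 CPM (WT) against 67.1, 126, 99.6 and 62.6 CPM (KO), and *Tnnt1*, encoding slow troponin T, was at 9.25, 12.9, 12 and 7.41 CPM (WT) against 200, 364, 177 and 138 CPM (KO). The groups did not overlap for either gene, with log2 fold changes of 4.50 (adjusted *P*=1.19e-05) and 4.40 (adjusted *P*=4.92e-05). The slow and cardiac troponin C gene *Tnnc1* (4.36), the slow myosin light chain genes *Myl2* (4.16) and *Myl6b* (2.92), the slow tropomyosin gene *Tpm3* (1.61) and *Atp2a2* (1.92), the calcium pump of slow fibres, rose as well on the log2 scale. KO replicate 2 was the highest of the KO libraries for *Myh7*, *Tnni1* and *Tnnt1*.

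**Figure D2:**
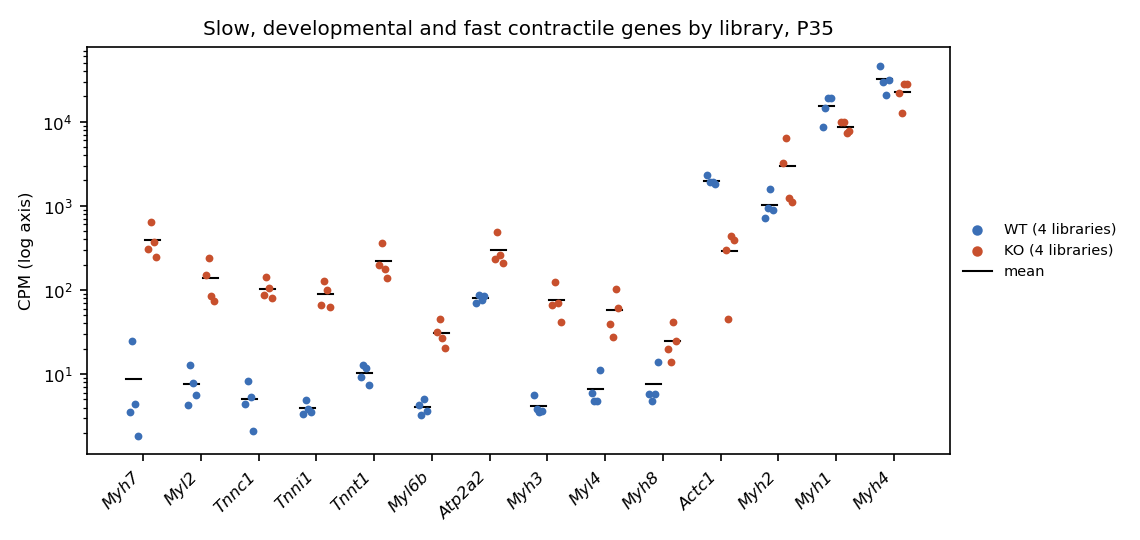
CPM on a log axis for 14 contractile genes in each WT (blue) and KO (red) library at P35, with the mean of each group as a line. Slow isoforms from *Myh7* to *Atp2a2* and embryonic *Myh3* sit apart in WT and KO, *Actc1* is lower in KO with 1 library at 45.1 CPM, and the fast heavy chains *Myh1* and *Myh4* overlap between groups.

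Fast contractile isoforms had few calls. Of 15 members tested, 0 rose and 2 fell, with a median of -0.60 (-0.21 with library totals). Only 1 of the 15 had a log2 fold change above 0. The sum over the list was lower in KO without overlap, at 129000 to 197500 CPM in the WT libraries and 90220 to 125500 in KO. Leaving out 1 library changed the calls to 4 lower without WT replicate 3. The fast myosin binding protein gene *Mybpc2* was at 5919, 3974, 2738 and 4379 CPM (WT) against 2180, 1514, 1707 and 2021 CPM (KO) (log2 fold change -1.2, adjusted *P*=0.00269), and *Mylk2*, the kinase of fast myosin light chains, was at 813, 691, 529.9 and 746 CPM (WT) against 373, 287, 352 and 418 CPM (KO) (log2 fold change -0.96, adjusted *P*=0.00119). The groups did not overlap for either gene. *Myh4*, the fastest heavy chain, was at 46470, 29910, 20500 and 30860 CPM (WT) against 21650, 12530, 27760 and 28120 CPM (KO) and was not called (log2 fold change -0.50, adjusted *P*=0.22), and *Myh1* (log2 fold change -0.81, adjusted *P*=0.0287) and *Myh2* (1.53, 0.0445) were not called either. *Myh2*, the heavy chain of fast oxidative fibres, was at 708, 952, 1582 and 901 CPM (WT) against 3208, 6409, 1244 and 1102 CPM (KO), with KO replicates 1 and 2 above the rest and KO replicates 3 and 4 inside the WT range.

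Developmental and cardiac isoforms moved in both directions. Embryonic myosin *Myh3* was at 5.71, 3.88, 3.59 and 3.64 CPM (WT) against 65.7, 124, 69.1 and 41.4 CPM (KO) (log2 fold change 4.16, SE 0.338, adjusted *P*=7.01e-05), with no overlap. The atrial and embryonic light chain *Myl4* (log2 fold change 3.10, adjusted *P*=0.000661) and cardiac troponin T *Tnnt2* (log2 fold change 2.18, adjusted *P*=0.000112) also rose. Perinatal myosin *Myh8* was at 5.77, 4.86, 5.74 and 13.8 CPM (WT) against 19.8, 13.9, 41.5 and 24.6 CPM (KO) (log2 fold change 1.72, adjusted *P*=0.00808), and in 6 of the 8 fits that left out 1 library the call was lost, with an adjusted *P* of up to 0.0257 without WT replicate 1. *Actc1*, the actin of heart and immature muscle, went the other way, at 2342, 1910, 1916 and 1830 CPM (WT) against 302, 45.1, 433 and 388 CPM (KO). KO replicate 2 was far below the other KO libraries (log2 fold change -2.78, adjusted *P*=0.00334), and in 1 of the 8 fits that left out 1 library the call was lost, with an adjusted *P* of up to 0.0107 without KO replicate 1. *Acta1*, the adult skeletal actin, was at 32020, 27790, 24220 and 29630 CPM (WT) against 19880, 16900, 13980 and 16540 CPM (KO) (log2 fold change -0.76, adjusted *P*=0.00641), with no overlap, and in 6 of the 8 fits that left out 1 library the call was lost, with an adjusted *P* of up to 0.0221 without KO replicate 3.

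In the wider list of Z-disc and M-band genes 8 of 36 rose and 8 fell, with a median of 0.001. With library totals 14 rose and 1 fell, with a median of 0.40. These calls came to 4 lower without WT replicate 4 or KO replicate 3. *Mustn1* (2.58) and *Smpx* (0.94), encoding small muscle proteins, *Ankrd1* (2.51), an ankyrin repeat gene, and the slow fibre M-band gene *Myom3* (3.0) rose on the log2 scale. *Ankrd23* (-1.34), of the same family as *Ankrd1*, and *Cmya5* (-0.76) fell. Desmin, the intermediate filament around Z-discs, had one of the largest rises in CPM of any DEG: *Des* was at 2411, 2200, 2084 and 2377 CPM (WT) against 3441, 3502, 4202 and 4435 CPM (KO) (log2 fold change 0.78, adjusted *P*=0.00117), with no overlap.

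The promoters of *Tnni1* and of *Kcng4*, a potassium channel subunit described below, are shown because they belong to genes that moved in opposite directions and both hold the E-box CAGCTG, the letters bound by myogenic factors. The 250 bases before the RefSeq start are given (GRCm38.p6), with the motif in capitals.
*Tnni1* (chr1:135799171-135799420, + strand): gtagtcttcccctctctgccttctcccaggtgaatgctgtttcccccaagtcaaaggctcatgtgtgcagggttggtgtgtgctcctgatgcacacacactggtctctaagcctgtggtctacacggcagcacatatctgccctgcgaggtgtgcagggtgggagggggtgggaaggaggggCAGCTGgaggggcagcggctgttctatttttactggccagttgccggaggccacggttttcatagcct
*Kcng4* (chr8:119635681-119635930, - strand): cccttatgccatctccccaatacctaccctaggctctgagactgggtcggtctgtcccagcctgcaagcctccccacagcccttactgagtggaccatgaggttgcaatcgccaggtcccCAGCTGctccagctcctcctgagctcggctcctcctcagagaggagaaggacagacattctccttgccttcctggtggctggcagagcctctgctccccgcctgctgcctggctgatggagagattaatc
The motif starts 68 bases before the start of *Tnni1* and 130 bases before that of *Kcng4*. On either strand it was in 15.6% of the 11402 promoters of tested genes that RefSeq gave, in 20.9% of the 968 of higher DEGs and in 14.4% of the 863 of lower DEGs, counted over 250 bases before to 50 after the start. A match is a run of letters and was not tested as a site. The RUNX letters TGTGGTT were in 3.64%, 3.82% and 3.48% of the same promoter groups.

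Genes that muscle switches on when it loses its nerve were higher in KO. Of 21 members of the denervation list 15 rose and 1 fell, with a median log2 fold change of 1.67 (2.07 with library totals). *Runx1*, a transcription factor induced by denervation, was at 2.29, 3.21, 2.03 and 3.12 CPM (WT) against 15.9, 23.4, 30.2 and 25.3 CPM (KO) (log2 fold change 3.15, SE 0.224, adjusted *P*=4.27e-05). *Myog*, the myogenic factor myogenin, was at 9.02, 17.1, 9.62 and 10.1 CPM (WT) against 37.1, 56.2, 87.7 and 53.5 CPM (KO) (log2 fold change 2.35, adjusted *P*=0.000323). Neither gene overlapped between groups. *Gdf5* (2.72), a BMP ligand, *Ncam1* (1.91), an adhesion molecule of immature and denervated fibres, *Kcnn3* (1.42), a calcium-activated potassium channel, and the ubiquitin ligase gene *Trim63* (1.28) rose on the log2 scale. *Dach2*, a repressor of myogenin that itself falls on denervation, was at 1.42, 1.93, 4.08 and 1.24 CPM (WT) against 0.174, 0.386, 0.345 and 0.200 CPM (KO) and fell (log2 fold change -2.95, adjusted *P*=0.000873). *Fbxo32*, the other well-known atrophy ligase, was called as well (log2 fold change 0.92, adjusted *P*=0.00654), but in 6 of the 8 fits that left out 1 library the call was lost, with an adjusted *P* of up to 0.0218 without WT replicate 4.

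Receptor subunits of the neuromuscular junction followed. In that list 8 of 22 members rose and 0 fell, with a median of 0.57. With 1 library fewer there were 1 lower without WT replicate 1. The fetal acetylcholine receptor subunit gene *Chrng* was at 0.313, 0.339, 0.467 and 0.295 CPM (WT) against 1.57, 1.2, 3.63 and 1.74 CPM (KO) (log2 fold change 2.52, adjusted *P*=0.000838). *Chrna1*, encoding the ligand-binding subunit, was at 33.0, 26.6, 27.6 and 11.7 CPM (WT) against 61.5, 63.9, 148 and 114 CPM (KO) (log2 fold change 1.97, adjusted *P*=0.00246). The groups were apart for both genes. *Chrnd* (2.92), *Chrnb1* (0.80) and *Erbb2* (1.29), a neuregulin receptor of the endplate, rose too on the log2 scale. Schwann cell markers shared the direction only: all 11 of 11 were above 0 in log2 fold change (median 1.5, 0 DEGs). Their sum ranged from 87.0 to 543 CPM for WT and from 294 to 1187 CPM for KO. Within KO the sum peaked in replicate 2 and was lowest in replicate 4. *Chrng* and *Chrna1* were instead highest in KO replicate 3, so the order of the KO libraries differed. WT replicate 3 lay within the KO range of that sum, 3 of the 11 were called without it, and the part of nerve tissue in these results was not tested.

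Channels of the fibre membrane were called lower more often than higher, and this depended on the scaling. Of 27 tested 3 rose and 10 fell, with a median of -0.47. With library totals 5 rose and 3 fell, with a median of -0.068. The voltage-gated potassium channel *Kcna7* was at 108, 95.8, 102 and 109.9 CPM (WT) against 30.9, 44.5, 31.5 and 35.8 CPM (KO) (log2 fold change -1.54, adjusted *P*=5.69e-05). No KO library reached the WT range. *Kcnc1* (-1.28) and *Kcna5* (-1.04) of the same superfamily, the sodium channel *Scn4a* (-0.86) of adult muscle and its beta subunit *Scn4b* (-0.84) also fell on the log2 scale. *Kcng4*, a modifier subunit of other potassium channels, was at 81.8, 96.1, 61.6 and 98.6 CPM (WT) against 9.02, 4.14, 9.05 and 9.46 CPM (KO) (log2 fold change -3.42, SE 0.269, adjusted *P*=6.19e-05).

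Of 30 triad genes 3 rose and 4 fell, with a median of -0.075, and with library totals 9 rose and 0 fell, with a median of 0.33. In fits short of 1 library, the members called were 2 lower without WT replicate 1, WT replicate 4 or KO replicate 3. *Cacng1*, the gamma subunit of the muscle calcium channel, was at 176, 159, 81.3 and 169.6 CPM (WT) against 368, 325, 506 and 477 CPM (KO) and rose (log2 fold change 1.52, adjusted *P*=0.00119). *Cacna2d1*, its alpha2delta subunit, fell (-0.77), as did the triad protein gene *Sypl2* (-0.73). The calcium release channel *Ryr1* was at 3793, 2322, 2960 and 2788 CPM (WT) against 2129, 2108, 1878 and 1816 CPM (KO) and was not called (log2 fold change -0.58, adjusted *P*=0.0143). *Sln*, encoding sarcolipin, a small membrane protein that inhibits the calcium pump of the sarcoplasmic reticulum, had one of the largest rises of all: it was at 2.81, 1.51, 2.33 and 0.845 CPM (WT) against 45.6, 221, 307 and 122 CPM (KO) (log2 fold change 6.54, SE 0.656, adjusted *P*=0.000149). KO replicate 1 was the lowest of its group and still over 10 times the highest WT library. The fast pump *Atp2a1*, which takes up calcium in this muscle, was at 35300, 25100, 23850 and 24270 CPM (WT) against 17330, 13280, 17050 and 16950 CPM (KO), with no overlap and no call (log2 fold change -0.75, adjusted *P*=0.0103). *Calm3* (-0.86), encoding calmodulin, fell on the log2 scale.

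Transcripts of the mitochondrial genome took a smaller share of KO libraries. They made up 12.4%, 16.2%, 17.9% and 16.2% of counts in WT and 10.3%, 10.3%, 10.5% and 10.5% in KO, 15.6% ± 2.34 against 10.4% ± 0.117 (SD, *n*=4, exact permutation test, two-sided, *P*=0.0286, the smallest that 70 assignments allow). WT replicate 1 was the nearest to KO, and no library overlapped. Of the 13 mRNAs, 9 fell and none rose, with a median log2 fold change of -1.02 (-0.62 and 8 lower calls with library totals). *mt-Nd5* (-1.57), *mt-Nd4l* (-1.48), *mt-Nd2* (-1.16), *mt-Nd4* (-1.06) and *mt-Nd1* (-0.99) of complex I, *mt-Cytb* (-1.02) of complex III, *mt-Co1* (-1.06) of complex IV and *mt-Atp8* (-1.28) of ATP synthase fell on the log2 scale. *mt-Co1*, the DEG with the largest fall in CPM, was at 46140, 54530, 66900 and 56340 CPM (WT) against 27570, 25980, 26090 and 27440 CPM (KO), and the groups were apart. *mt-Nd6* was also called (log2 fold change -0.80, adjusted *P*=0.00349), but in 2 of the 8 fits that left out 1 library the call was lost, with an adjusted *P* of up to 0.0117 without KO replicate 3.

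The mRNAs *mt-Co2* (-0.38), *mt-Co3* (-0.37), *mt-Atp6* (-0.57) and *mt-Nd3* (-0.81) were not called. Their values, and those of the called *mt-Nd4l*, *mt-Nd4*, *mt-Atp8* and *mt-Co1*, are uncertain, because 7 gene models in a nuclear copy of mitochondrial DNA on chromosome 1 share 97.2% to 100% of their 31-letter words with mitochondrial transcripts, and reads can be split between the copy and the original. *Gm28661*, the copy of *mt-Co2*, was at 9377, 2063, 12550 and 585 CPM (WT) against 0.0872, 1020, 4.60 and 7.01 CPM (KO), and the groups overlapped. *Gm28439*, the copy of *mt-Nd4*, was at no more than 1.08 CPM in any library, so counting it with *mt-Nd4* would change *mt-Nd4* little. The 7 models took 4.68% of counts in WT and 2.54% in KO, and together with the mitochondrial genes the share was 20.3% ± 2.96 in WT and 12.96% ± 0.0547 in KO (SD, *n*=4, exact permutation *P*=0.0286). Both *Gm28437* (-1.19), the copy of *mt-Co3*, and *Gm10925* (-0.99), the copy of *mt-Atp6* and *mt-Atp8*, fell.

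**Figure D3:**
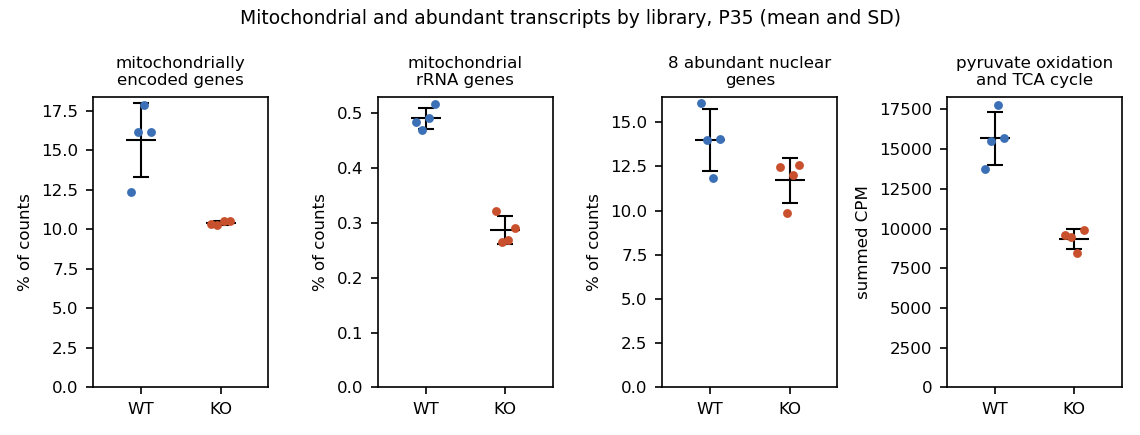
Share of counts from mitochondrially encoded genes, mitochondrial rRNA genes and 8 abundant nuclear genes (the 10 most abundant without the copies of mitochondrial genes), and the summed CPM of 30 pyruvate oxidation and TCA cycle genes, in each WT (blue) and KO (red) library at P35, with mean and SD. The groups overlap for the 8 nuclear genes, KO lies below WT in the other panels, and the mitochondrially encoded share of KO is held within 10.3% to 10.5%.

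Nuclear genes of oxidation fell as a group too. The matrix enzymes that feed and turn the TCA cycle had the largest share: 22 of 30 fell and 0 rose, with a median of -0.76, and with library totals the median was -0.36 and 2 fell. *Idh3a*, a subunit of isocitrate dehydrogenase, was at 969, 1064, 1109 and 1088 CPM (WT) against 470.1, 428, 473 and 576 CPM (KO) (log2 fold change -1.12, SE 0.108, adjusted *P*=0.000135). *Suclg1* of succinyl-CoA ligase was at 303, 354, 361 and 344 CPM (WT) against 179, 160.2, 175 and 206 CPM (KO) (log2 fold change -0.92, adjusted *P*=0.000178). No library overlapped for either. *Cs* (-0.81), *Mdh2* (-0.87), the pyruvate dehydrogenase genes *Pdha1* (-0.97) and *Dlat* (-0.90), and *Dld* (-0.85), the subunit that several of these complexes share, fell on the log2 scale.

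Of the respiratory chain, 6 of 36 nuclear complex I genes fell and 0 rose (median -0.43, -0.036 and 0 lower with library totals). The calls numbered 14 lower without KO replicate 4. *Ndufs1* was at 667, 708, 789 and 757 CPM (WT) against 419.9, 368, 379 and 424 CPM (KO) (log2 fold change -0.88, adjusted *P*=0.000165), and *Ndufs8* (-0.85) fell as well. For complexes II to V the count was 15 of 41 lower and 0 higher (median -0.44, and with library totals -0.046, 1 lower and 1 higher). *Uqcrc1* of complex III was at 865, 1030, 1161 and 1092 CPM (WT) against 538, 478, 491 and 585 CPM (KO) (log2 fold change -0.99, adjusted *P*=0.000272), *Atp5g1* (-0.94) and *Atp5c1* (-0.76) of ATP synthase fell, and *Sdha* (-0.81) of complex II fell. No KO library reached the WT range for *Ndufs1* or *Uqcrc1*.

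Of 34 genes of mitochondrial biogenesis and dynamics 3 rose and 8 fell, with a median of -0.36. With library totals 6 rose and 2 fell, with a median of 0.045. *Ppargc1a*, encoding the coactivator PGC-1alpha, was at 46.0, 44.2, 56.9 and 49.4 CPM (WT) against 23.1, 22.2, 19.6 and 23.7 CPM (KO) (log2 fold change -1.15, adjusted *P*=8.51e-05), and the fatty acid receptor gene *Ppara* was at 10.7, 5.83, 13.8 and 8.69 CPM (WT) against 3.47, 3.63, 1.68 and 1.65 CPM (KO) (log2 fold change -1.90, adjusted *P*=0.00195). The groups were apart for both. The fusion genes *Mfn1* (-0.89), *Mfn2* (-0.64) and *Opa1* (-0.84) fell on the log2 scale, whereas *Micu2* (0.85) and *Mcub* (1.13), which gate calcium entry into mitochondria, rose. In fatty acid uptake and oxidation 8 of 37 fell (median -0.43), led by *Crat* (-0.80), *Cpt2* (-0.73) and *Cpt1b* (-0.80) of the carnitine shuttle. Leaving out 1 library changed the calls to 1 higher without KO replicate 4 and 4 lower without WT replicate 2, KO replicate 1 or KO replicate 3. With library totals 0 fell and 2 rose.

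Glycolysis and glycogen genes were called mostly lower with TMM, with 20 of 40 falling, 1 rising and a median of -0.64. With library totals 5 rose and 5 fell, with a median of -0.23. These calls came to 2 higher without WT replicate 1 and 12 lower without WT replicate 4 or KO replicate 3. *Pygm*, the phosphorylase that breaks down muscle glycogen, was at 6029, 4897, 4085 and 5095 CPM (WT) against 2585, 2056, 2652 and 2870 CPM (KO) (log2 fold change -0.98, adjusted *P*=0.00113). *Gpd1*, which links glycolysis to lipid and redox shuttles, was at 983, 876, 756 and 969 CPM (WT) against 358, 211, 339 and 376 CPM (KO) (log2 fold change -1.48, adjusted *P*=0.000317). Neither overlapped. *Phka1* (-1.23) of phosphorylase kinase, *Ppp1r3a* (-0.99), which targets a phosphatase to glycogen, the insulin-responsive transporter *Slc2a4* (-0.78) and hexokinase *Hk2* (-0.77) fell on the log2 scale. *Eno2*, the enolase of neurons and immature muscle, rose (1.52). *Gapdh*, often used as a reference gene, was at 7370, 7476, 6670 and 8036 CPM (WT) against 4659, 3817, 4962 and 5597 CPM (KO) (log2 fold change -0.63, adjusted *P*=0.00698), and in 6 of the 8 fits that left out 1 library the call was lost, with an adjusted *P* of up to 0.0249 without WT replicate 4.

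In the list of the purine cycle, creatine and carbonic anhydrase 6 of 24 rose and 8 fell (9 and 4 with library totals), and polyamine genes were called in both directions. *Amd1*, the decarboxylase that supplies the aminopropyl group of polyamines, was at 659, 567, 180.3 and 594 CPM (WT) against 88.3, 64.0, 109.7 and 109 CPM (KO) (log2 fold change -2.43, adjusted *P*=0.000889). WT replicate 3 was far below the other WT libraries and still above every KO library. *Smox*, spermine oxidase, fell (-2.09) and *Sat1*, which acetylates polyamines for export, rose (0.87). Mitochondrial creatine kinase *Ckmt2* fell (log2 fold change -1.59, adjusted *P*=0.000327) and the brain form *Ckb* rose (log2 fold change 0.97, adjusted *P*=0.001). *Ampd3*, the AMP deaminase of non-muscle tissue and of atrophying muscle, was at 10.5, 8.38, 13.2 and 8.69 CPM (WT) against 25.2, 37.0, 33.2 and 27.7 CPM (KO) and rose (log2 fold change 1.59, adjusted *P*=0.00019).

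Immediate early genes rose, and MAP kinase phosphatases were called in both directions. Of 36 AP-1 factors and MAP kinase phosphatases 15 rose and 4 fell, with a median of 0.24. With library totals 18 rose and 2 fell, with a median of 0.64. *Fosl1*, an AP-1 subunit, was at 0.0208, 0.0199, 0.0203 and 0.0197 CPM (WT) against 0.915, 1.49, 2.69 and 4.44 CPM (KO), where WT held at most 1 count in a library (adjusted *P*=0.000164). *Egr1* was at 6.50, 5.95, 8.36 and 13.8 CPM (WT) against 120, 84.3, 181 and 116 CPM (KO) (log2 fold change 3.85, adjusted *P*=7.62e-05), and *Junb* was at 5.31, 7.33, 6.31 and 5.86 CPM (WT) against 37.3, 39.2, 47.2 and 39.4 CPM (KO) (log2 fold change 2.72, adjusted *P*=1.99e-06). All KO libraries were above all WT libraries for these genes. *Fos* (2.94), *Egr2* (2.85), *Egr3* (2.93), *Atf3* (2.68), *Dusp2* (3.50), *Dusp5* (2.69) and *Dusp4* (2.15) rose on the log2 scale, and *Dusp7* (-1.28), *Dusp26* (-1.27), *Dusp16* (-0.62) and the kinase gene *Mapk14* (-0.74) fell. The call of *Dusp16* was lost without WT replicate 1.

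The promoters of *Sprr1a* and *Mt2* are shown because both genes rose and both hold the AP-1 letters TGACTCA on one of their strands, in capitals in the 250 bases before the RefSeq start (GRCm38.p6).
*Sprr1a* (chr3:92485882-92486131, - strand): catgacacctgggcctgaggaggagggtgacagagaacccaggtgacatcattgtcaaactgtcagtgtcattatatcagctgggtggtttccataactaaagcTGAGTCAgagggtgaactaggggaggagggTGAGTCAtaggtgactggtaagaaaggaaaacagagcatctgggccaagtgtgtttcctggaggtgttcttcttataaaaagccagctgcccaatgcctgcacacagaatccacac
*Mt2* (chr8:94172368-94172617, + strand): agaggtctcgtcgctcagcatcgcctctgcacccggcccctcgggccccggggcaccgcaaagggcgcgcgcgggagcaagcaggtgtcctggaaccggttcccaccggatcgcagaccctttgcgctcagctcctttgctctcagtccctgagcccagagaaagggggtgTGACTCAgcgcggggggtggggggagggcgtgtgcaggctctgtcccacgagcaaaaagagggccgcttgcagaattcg
*Sprr1a* holds the letters at 2 places, of which the farther starts 146 bases before the start. *Mt2* holds them at 1 place, 79 bases before the start. There, and at the farther place of *Sprr1a*, they overlap the antioxidant element TGACNNNGC. The AP-1 letters were in 3.6% of the promoters of all tested genes, 4.65% of those of higher DEGs and 3.24% of those of lower DEGs. For TGACNNNGC the shares were 14.7%, 15.1% and 17.6%. For the amino acid response letters TGATGNAAT they were 0.447%, 0.723% and 0.348%, and for the estrogen-related receptor letters TCAAGGTCA 0.246%, 0.723% and 0.348%. These are descriptions of letters, and binding was not measured.

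*Sprr1a*, encoding a small proline-rich protein of cornified epithelia that injured nerve and muscle also make, was the DEG with the highest log2 fold change among those chosen by rule. It was at 0 CPM in each WT library and at 1.48, 0.953, 3.46 and 3.27 CPM in KO, at least 37.8-fold higher in KO when the WT group is set to a floor of 3 counts per library (adjusted *P*=0.000666). The simple epithelial keratins *Krt8*, at 0.0417, 0, 0.0203 and 0.0197 CPM (WT) against 1.70, 7.59, 15.2 and 11.3 CPM (KO) (adjusted *P*=0.000198), and *Krt18*, at 0.188, 0.219, 0.162 and 0.118 CPM (WT) against 5.43, 10.4, 26.9 and 17.0 CPM (KO) (log2 fold change 6.43, adjusted *P*=0.000111), form filaments with each other. WT held at most 2 counts of *Krt8*, and KO replicate 1 was the lowest KO library for both keratins. Of the epidermal keratinocyte markers, basal keratins were near 0 in all libraries: *Krt5* was at 0.0833, 0.279, 0.0812 and 0.197 CPM (WT) against 0.174, 0.0772, 0.345 and 0.108 CPM (KO), and *Krt14* was at 0.125, 0.199, 0.142 and 0.197 CPM (WT) against 0.145, 0.0257, 0.278 and 0.123 CPM (KO). *Krt10*, of the same list, was at 3.79, 4.30, 3.37 and 3.58 CPM (WT) against 3.63, 3.35, 4.47 and 3.58 CPM (KO) and was not called, and *Trp63*, which is on the list and also a relative of p53, rose and was at 3.98, 3.44, 4.0 and 3.73 CPM (WT) against 17.6, 17.9, 20.4 and 18.6 CPM (KO) (log2 fold change 2.30, adjusted *P*=1.83e-06).

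**Figure D4:**
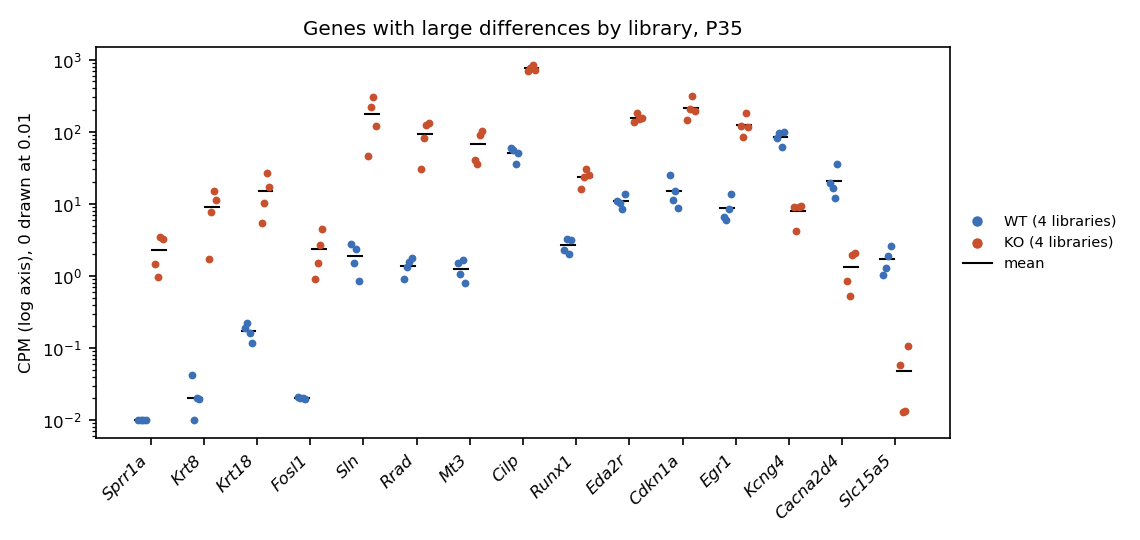
CPM on a log axis (values of 0 drawn at 0.01) for 12 genes that rose and 3 that fell in KO at P35, in each WT (blue) and KO (red) library with group means as lines. *Sprr1a* is at 0 in all 4 WT libraries, *Cilp* is at 36.2 to 58.9 CPM in WT and at 703 CPM or more in KO, and *Kcng4*, *Cacna2d4* and *Slc15a5* fall without overlap.

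Keratins were part of a wider rise of the cytoskeleton list, in which 15 of 33 rose and 0 fell, with a median of 0.68 (1.08 with library totals). With 1 library fewer there were 2 lower without WT replicate 3. *Tubb6*, a beta tubulin of immature muscle, was at 11.2, 17.2, 10.3 and 15.2 CPM (WT) against 81.1, 118, 174 and 152 CPM (KO) (log2 fold change 3.29, SE 0.261, adjusted *P*=6.28e-05). *Nes*, encoding nestin, was at 83.1, 105, 88.4 and 104 CPM (WT) against 263, 280.5, 360.1 and 292 CPM (KO) (log2 fold change 1.65, adjusted *P*=4.87e-05). Neither overlapped. *Map1a* (1.99) and *Tuba1c* (1.24) of microtubules and *Atat1* (1.12), the enzyme that acetylates tubulin, rose on the log2 scale.

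Of 21 heat shock proteins with BAG3, 7 rose and 0 fell, with a median of 0.39 (0.80 with library totals). In fits short of 1 library, the members called were 4 higher without WT replicate 3. *Hspb8*, a small heat shock protein that works with BAG3 at the Z-disc, was at 312, 318, 212 and 314 CPM (WT) against 579.6, 673, 925 and 804 CPM (KO) (log2 fold change 1.37, adjusted *P*=0.000418), with WT replicate 3 the lowest. *Hspa1a* (1.74) and *Hspa1b* (1.79), near-identical copies whose reads can be split between them, and *Hspb1* (1.2) rose. *Hspb7* was at 258, 386, 352 and 469.9 CPM (WT) against 708, 1392, 641 and 843 CPM (KO) (log2 fold change 1.29, adjusted *P*=0.00393), and in 3 of the 8 fits that left out 1 library the call was lost, with an adjusted *P* of up to 0.013 without WT replicate 3. *Cryab*, alphaB-crystallin, was at 457, 522, 458 and 577 CPM (WT) against 909, 1368, 711 and 772 CPM (KO) (log2 fold change 0.90, adjusted *P*=0.00582), and in 5 of the 8 fits that left out 1 library the call was lost, with an adjusted *P* of up to 0.0186 without WT replicate 3. In the ER, *Manf* rose (0.72), and 2 of 23 ER chaperones were called higher, near the 8.49% of all genes. The calls numbered 1 higher without WT replicate 1, WT replicate 3, WT replicate 4, KO replicate 3 or KO replicate 4 and 5 higher without KO replicate 1.

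Of 22 p53 targets with *Eda2r*, 7 rose and 2 fell, with a median of 0.29 (10 and 0 with library totals). *Eda2r*, a death-domain receptor of the TNF family, was at 10.9, 10.2, 8.48 and 13.6 CPM (WT) against 136, 182, 152 and 156 CPM (KO) (log2 fold change 3.85, SE 0.158, adjusted *P*=1.83e-06), with no overlap. *Cdkn1a*, the cell cycle inhibitor p21, was at 24.9, 11.4, 15.1 and 8.79 CPM (WT) against 144, 205, 312 and 195 CPM (KO) (log2 fold change 3.83, adjusted *P*=0.000118). *Bbc3* (1.88) and *Perp* (1.45) rose and *Ccng1* (-0.82) and *Polk* (-0.95) fell on the log2 scale. Among proliferation genes none of 26 rose and 2 fell, *Rrm1* (-0.64) and *Aurka* (-1.10), whereas with library totals 2 rose and 0 fell. The falls were near the 7.52% of all genes called lower. The call of *Aurka* was lost in 4 of the 8 fits that left out 1 library, with an adjusted *P* of up to 0.0164 without KO replicate 3.

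Antioxidant and metal-binding genes were mixed, with 11 of 32 higher and 2 lower (median 0.34), or 18 and 1 with library totals. Leaving out 1 library changed the calls to 1 lower without WT replicate 2, WT replicate 4, KO replicate 1 or KO replicate 3. *Mt3*, a metallothionein known from brain, was at 1.52, 1.05, 1.66 and 0.786 CPM (WT) against 40.9, 35.8, 90.7 and 102 CPM (KO) (log2 fold change 5.75, SE 0.439, adjusted *P*=5.33e-05), and *Mt2* was at 21.6, 3.33, 3.27 and 2.69 CPM (WT) against 123, 73.3, 114 and 89.2 CPM (KO) (log2 fold change 3.69, adjusted *P*=0.00223). The groups were apart for both. *Gsta1* (5.01), a glutathione transferase, and *Srxn1* (1.08), sulfiredoxin, rose, and the mitochondrial superoxide dismutase gene *Sod2* fell (-1.15). *Aldh3a1*, an aldehyde dehydrogenase of the cornea and of stressed cells, was at 0.125, 0.0995, 0.102 and 0.0786 CPM (WT) against 2.34, 8.34, 7.11 and 2.28 CPM (KO) (log2 fold change 5.61, adjusted *P*=0.000172), and *Rrad*, a Ras-like GTPase that restrains calcium channels, was at 0.917, 1.31, 1.54 and 1.79 CPM (WT) against 30.4, 81.8, 126 and 131 CPM (KO) (log2 fold change 6.05, adjusted *P*=7.01e-05).

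In protein synthesis and turnover the shifts were small. All 78 cytosolic ribosomal protein genes tested had a log2 fold change above 0, with a median of 0.45, and 14 passed the test (77 with library totals). These calls came to 6 higher without KO replicate 3 and 22 higher without WT replicate 2. *Rpl3* was at 54.7, 65.9, 67.8 and 62.4 CPM (WT) against 96.6, 138, 129 and 102 CPM (KO) (log2 fold change 0.89, adjusted *P*=0.000674), and *Rpl22* (0.66) and *Rpl13a* (0.74) rose. *Eef1a1*, the elongation factor of most tissues that adult muscle replaces with *Eef1a2*, was at 499, 546, 597 and 541 CPM (WT) against 932, 1121, 1168 and 903 CPM (KO) (log2 fold change 0.92, adjusted *P*=0.000334). Ribosomal proteins and *Eef1a1* have many processed pseudogenes that can share reads with them. Of 38 proteasome genes 3 rose (median 0.34, 27 with library totals), near the 8.49% of all genes called higher. The calls depended on the libraries. With 1 library fewer there were 0 higher without WT replicate 3 or KO replicate 4 and 6 higher without WT replicate 2 or KO replicate 2.

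Of 48 autophagy and lysosome genes 8 rose and 4 fell (median 0.020), and with library totals 17 rose and 0 fell. In fits short of 1 library, the members called were 5 higher without KO replicate 3. *Gabarap* (0.68), a membrane tag of autophagosomes, the lysosomal enzymes *Hexa* (0.95), *Ctsz* (0.79) and *Ctss* (1.46) and the proton pump subunit *Atp6v1h* (0.69) rose on the log2 scale. The kinases *Ulk1* (-0.71) and *Ulk2* (-0.78) and their partner *Rb1cc1* (-0.66), which start autophagy, fell. *Ctss* is made by macrophages, whose markers were also higher (below).

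In the list of collagens and matrix 8 of 52 rose and 4 fell, with a median of 0.086 near that of all genes (16 and 2 with library totals). The calls numbered 5 higher without WT replicate 1 or WT replicate 2 and 2 lower without WT replicate 3. *Cilp*, a matrix protein of cartilage that binds TGF-beta, was at 58.9, 56.6, 36.2 and 51.5 CPM (WT) against 703, 775, 851 and 721 CPM (KO) (log2 fold change 3.91, SE 0.165, adjusted *P*=1.83e-06), and every KO library was at 703 CPM or more. *Col8a1* (3.10) and *Col19a1* (2.0) rose and *Col6a6* (-1.28) and *Col4a3* (-1.13) fell on the log2 scale. Of TGF-beta ligands, proteases and inhibitors, 8 of 37 rose and 2 fell (median 0.44, 18 and 2 with library totals). Leaving out 1 library changed the calls to 5 higher without WT replicate 3. *Timp1*, an inhibitor of matrix proteases, was at 1.85, 2.79, 1.28 and 3.22 CPM (WT) against 11.3, 22.5, 26.4 and 18.6 CPM (KO) (log2 fold change 3.10, adjusted *P*=0.000188), and its relative *Timp4* was at 50.9, 47.0, 78.9 and 40.2 CPM (WT) against 18.3, 15.2, 11.7 and 13.2 CPM (KO) (log2 fold change -1.89, adjusted *P*=0.000249). The ligand genes *Tgfb1* (1.02) and *Tgfb3* (0.92) rose.

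In the list of myostatin, activin and IGF1 signalling 4 of 43 rose and 5 fell, near the shares of all genes, with a median of -0.003. With library totals 9 rose and 2 fell, with a median of 0.40. *Mstn*, the muscle-made inhibitor of muscle growth, was at 61.6, 31.7, 21.1 and 24.5 CPM (WT) against 13.2, 5.93, 4.53 and 7.30 CPM (KO) (log2 fold change -2.17, adjusted *P*=0.00264), and its antagonist follistatin, *Fst*, was at 4.71, 5.47, 2.88 and 3.28 CPM (WT) against 21.8, 38.1, 28.4 and 19.2 CPM (KO) (log2 fold change 2.72, adjusted *P*=0.00014). No library overlapped for either. *Igfbp2*, an IGF-binding protein, rose (log2 fold change 2.92, adjusted *P*=0.000791) and *Smad3*, which carries the myostatin and TGF-beta signal, fell (log2 fold change -1.11, adjusted *P*=0.000293). These list calls came to 2 higher without WT replicate 1, WT replicate 2 or KO replicate 1 and 2 lower without WT replicate 1, KO replicate 3 or KO replicate 4.

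Of cytokine and chemokine genes 12 of 40 rose and 7 fell (median 0.44), and with library totals 20 rose and 1 fell. With 1 library fewer there were 3 lower without WT replicate 2 or KO replicate 3. The non-canonical NF-kappaB genes *Nfkb2* (2.20), *Relb* (1.62) and *Map3k14* (1.03) and the TWEAK receptor *Tnfrsf12a* (2.24) rose, and the LIF receptor *Lifr* (-0.98) and *Jak2* (-1.39) fell on the log2 scale. *Nfkb2* was at 9.96, 11.2, 10.3 and 9.65 CPM (WT) against 37.4, 47.0, 54.7 and 50.7 CPM (KO) (log2 fold change 2.20, adjusted *P*=9.68e-06). Macrophage markers moved in the same libraries. Of 16 markers 11 rose and 0 fell (median 0.96), none of the 16 was at 0, and their sum was 109 to 137 CPM in the WT libraries and 153 to 234 in KO. *Cd68* was at 1.88, 1.77, 2.27 and 2.56 CPM (WT) against 4.76, 7.97, 6.52 and 8.34 CPM (KO) (log2 fold change 1.70, adjusted *P*=0.000286), and *Lgals3*, which injured fibres also make, was at 3.06, 1.95, 1.46 and 1.85 CPM (WT) against 8.03, 17.4, 30.9 and 20.4 CPM (KO) (log2 fold change 3.20, adjusted *P*=0.000346). In bulk muscle more cells of a type and more RNA per cell cannot be told apart, and the part of macrophages in the cytokine and lysosome results was not tested.

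Satellite cell and myogenic genes were called in both directions. *Pax7*, which marks resting satellite cells, was at 3.92, 4.70, 4.40 and 4.80 CPM (WT) against 2.02, 1.65, 1.25 and 1.70 CPM (KO) (log2 fold change -1.43, adjusted *P*=0.000248), and *Calcr*, the calcitonin receptor of the same resting cells, was at 0.834, 1.01, 1.16 and 1.00 CPM (WT) against 0.160, 0.0901, 0.146 and 0.0462 CPM (KO) (log2 fold change -3.15, adjusted *P*=0.000172). *Mymx*, a small membrane protein that fuses myoblasts, was at 0.188, 0.398, 0.0406 and 0.236 CPM (WT) against 1.35, 4.30, 11.2 and 3.68 CPM (KO) and rose (log2 fold change 4.56, adjusted *P*=0.00119). None of the 3 overlapped between groups. Over the list 9 of 26 rose and 4 fell (median 0.18), and with library totals 12 rose and 2 fell (median 0.58). *Mef2c*, a transcription factor of muscle genes, had one of the largest rises in CPM, at 688, 635, 582 and 767 CPM (WT) against 1104, 1044, 1005 and 931 CPM (KO) (log2 fold change 0.61, adjusted *P*=0.00191). Its call was lost in 3 of the 8 fits that left out 1 library, where the change dropped under 1.5-fold (0.58 on the log2 scale without WT replicate 2).

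Markers of other cell types were also measured. Of 12 endothelial markers 5 fell (2 with library totals) and 0 rose, with a median of -0.53 and a sum of 684 to 1023 CPM in the WT libraries and 490.2 to 577 in KO. In fits short of 1 library, the members called were 2 lower without WT replicate 2, WT replicate 3, WT replicate 4, KO replicate 2 or KO replicate 3. *Flt1* was at 106, 74.5, 117 and 90.0 CPM (WT) against 48.4, 52.9, 42.7 and 43.0 CPM (KO) (log2 fold change -1.05, adjusted *P*=0.000483), and *Ptprb* was at 161, 134, 189.7 and 177 CPM (WT) against 90.6, 81.0, 68.1 and 76.9 CPM (KO) (log2 fold change -1.06, adjusted *P*=0.000277). Adipocyte markers rose for 5 of 11 (median 2.35), with *Adipoq* at 2.44, 0.677, 1.99 and 0.767 CPM (WT) against 13.7, 17.2, 6.97 and 4.07 CPM (KO) (log2 fold change 2.84, adjusted *P*=0.00278), and their sum overlapped, at 758 to 2423 CPM in the WT libraries and 1065 to 2788 in KO. The calls numbered 2 higher without WT replicate 2 or WT replicate 4. Of fibro-adipogenic progenitor markers only *Mfap5* (1.5) of 12 rose (6 with library totals), of smooth muscle markers 2 of 10 fell (with library totals 2 rose and 0 fell), and no tendon (7) or blood (5) marker was called in either direction (2 tendon markers rose with library totals). Neutrophil (8) and lymphocyte (10) markers summed to at most 1.66 CPM in any library. Markers of the fibre itself were abundant in every library, with sums of 98730 to 137000 CPM in the WT libraries and 64370 to 84830 in KO.

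The genes that fell most were of other kinds. *Slc15a5*, of a peptide transporter family, was at 1.02, 1.29, 1.87 and 2.63 CPM (WT) against 0.0581, 0.0129, 0.0133 and 0.108 CPM (KO) (log2 fold change -5.15, adjusted *P*=0.000192). *Prima1*, which anchors acetylcholinesterase in membranes, was at 5.21, 1.67, 3.02 and 3.83 CPM (WT) against 0.450, 0.347, 0.133 and 0.154 CPM (KO) (log2 fold change -3.65, adjusted *P*=0.000375). For both genes the highest KO library was below the lowest WT library. *Cacna2d4* (-3.97) and *Lrtm2* (-3.91), which overlap each other on chromosome 6, and the RNA genes *C130080G10Rik* (-5.63) and *A530058N18Rik* (-5.10), which overlap on chromosome 2, fell as pairs, so reads of the members of a pair may not be independent. *B230312C02Rik* (-5.21), *Gm15543* (-3.81) and *Cyp4f39* (-3.90), a cytochrome P450 of lipid metabolism, fell as well. Among clock genes 5 of 19 fell and 0 rose, with a median of -0.36, whereas with library totals 1 rose and 1 fell, with a median of 0.048. *Nr1d2* (-0.74) kept its call without any 1 library. Leaving out 1 library changed the calls to 2 lower without WT replicate 1 or WT replicate 4.

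To see which differences belonged to P35 more than to the age before, the KO effect at P35 was tested against that at P21 in a fit of all 32 libraries, and values in the next paragraphs are CPM on that scale. Of 18583 genes, 86 differed (0.463%), 28 with a higher and 58 with a lower KO effect at P35, and 72 of the 86 were DEGs at P35. An unadjusted *P* under 0.05 was reached by 3241. The count depended on the libraries in the fit. With only the 16 libraries of P21 and P35 it was 9. That fit had its own filter, scaling and spread, and the part of each was not tested. Without KO replicate 1 of P21, KO replicate 3 of P35 or WT replicate 4 of P35 the count was 37, 38 and 46. Of the 28 genes with a higher effect, 27 had a lower WT mean at P35 than at P21. Of the 58 with a lower effect, 54 had a higher WT mean at P35. The WT change between the ages is part of the difference tested, so these counts follow in part from how the genes were picked. The same counts over all genes were not made.

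*Tac4*, a tachykinin gene of low level named after its values were seen, had the highest difference of the log2 fold changes (4.97, adjusted *P*=0.000673), at 0.0487, 0.0468, 0.0475 and 0.0231 CPM in the WT and 0.334, 0.649, 2.54 and 1.85 in the KO libraries of P35. Slow contractile genes were also among the higher effects. *Tnnt1* was at 36.5, 55.1, 67.0 and 132 CPM in the WT and 105, 148, 156 and 113 in the KO libraries of P21, and 10.8, 15.1, 14.0 and 8.69 CPM in the WT and 229.9, 417, 205 and 159.6 in the KO libraries of P35 (difference of the log2 fold changes 3.54, SE 0.386, adjusted *P*=1.17e-05). All WT libraries of P35 were below those of P21, all KO libraries of P35 were above those of P21, and WT replicate 4 of P21 lay within the KO range. *Myh7* was at 136, 88.2, 82.2 and 512 CPM in the WT and 388, 475, 345 and 279 in the KO libraries of P21, and 4.14, 29.3, 5.22 and 2.17 CPM in the WT and 349.8, 730.1, 434 and 288 in the KO libraries of P35 (difference of the log2 fold changes 4.60, SE 0.775, adjusted *P*=0.00171). The same WT library of P21 lay above every KO library of its age. *Tnnc1*, *Myl2*, *Tnni1*, *Atp2a2* and *Tpm3* were also among the 86, as were the immediate early genes *Egr1*, *Egr2* and *Ier2*. For all of these but *Egr2*, WT replicate 4 of P21 was the highest WT library of its age. For *Tnnc1* it was at 71.5 CPM against 18.5 to 21.3 CPM in the others. A high WT value at P21 enlarges the difference. Without that library 57 genes differed, and 17 of the 20 genes named by rule kept their call. For *Egr1* the libraries held 19.6, 20.5, 29.9 and 88.5 CPM in the WT and 26.8, 48.3, 59.2 and 85.4 in the KO libraries of P21, and 7.59, 7.0, 9.78 and 16.2 CPM in the WT and 138, 96.6, 209 and 134 in the KO libraries of P35 (difference of the log2 fold changes 3.36, SE 0.540, adjusted *P*=0.00109), so that the groups overlapped at P21 and were apart at P35.

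**Figure D5:**
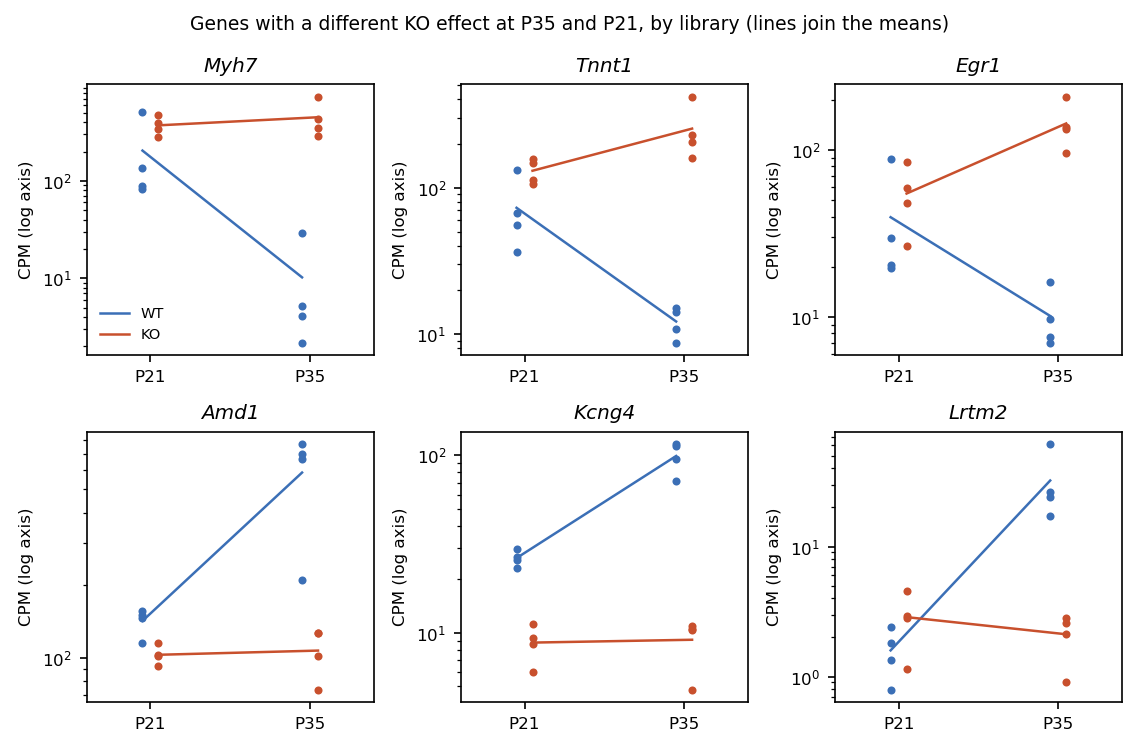
CPM on a log axis at P21 and P35 for 6 genes whose KO effect differed between the ages, with points for libraries and lines joining the means of WT (blue) and KO (red). WT falls for *Myh7*, *Tnnt1* and *Egr1* and rises for *Amd1*, *Kcng4* and *Lrtm2*, while the KO means of the ages lie close together for *Myh7*, *Amd1* and *Kcng4*.

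Among the lower effects were genes with a higher WT mean at P35 than at P21. *Kcng4* was at 25.7, 23.3, 26.7 and 29.7 CPM in the WT and 5.98, 9.36, 11.2 and 8.63 in the KO libraries of P21, and 95.6, 113, 72.0 and 116 CPM in the WT and 10.4, 4.75, 10.5 and 10.9 in the KO libraries of P35 (difference of the log2 fold changes -1.86, SE 0.302, adjusted *P*=0.0012). The KO ranges of the ages overlapped and the WT ranges did not. *Amd1* was at 156, 146, 116 and 151 CPM in the WT and 103, 101, 115 and 92.4 in the KO libraries of P21, and 769, 666, 211 and 697 CPM in the WT and 102, 73.4, 127 and 126 in the KO libraries of P35 (difference of the log2 fold changes -1.99, SE 0.323, adjusted *P*=0.00121), with WT replicate 3 of P35 far below its group. *Lrtm2* was at 0.786, 1.82, 2.42 and 1.34 CPM in the WT and 2.94, 4.54, 1.15 and 2.82 in the KO libraries of P21, and 26.1, 24.2, 17.1 and 61.4 CPM in the WT and 2.12, 0.914, 2.82 and 2.6 in the KO libraries of P35 (difference of the log2 fold changes -4.78, SE 0.572, adjusted *P*=3.4e-05), and the groups overlapped at P21. *Cacna2d4*, *Tph1* (tryptophan hydroxylase), *Nos1* (the nitric oxide synthase of the dystrophin complex), *Pm20d2*, *Tbc1d1* (a regulator of glucose transporter traffic), *Smad3*, *Ulk1* and *Jak2* were further members. With only the 16 libraries 18 of the 20 genes named by rule lost their call, and these differences are to be read with that limit.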

How the data were processed

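RNA of TA muscle from *Mtm1* KO and WT mice was sequenced by the authors as strand-specific paired-end libraries. They aligned the reads to GRCm38 and deposited expected counts of every gene in 1 table, without scaling or pooling. The submitters' processing notes name STAR 2.6.1, RSEM 1.2.22 and DESeq2, whereas the methods name HTSeq as counter, and whether counting used the strand is not given in the sources used here. Groups came from the labels, and libraries are named by genotype and replicate number.

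Of 54838 genes in the table, 54809 were given a symbol from the GENCODE annotation of GRCm38. Counts were rounded, genes were filtered with filterByExpr, and KO was compared with WT over the 8 libraries in R 4.3.3 with edgeR 4.0.16 (TMM, quasi-likelihood test, two-sided, adjusted by Benjamini-Hochberg over every tested gene). A DEG needed an adjusted *P* under 0.01 and a change of over 1.5-fold. Adjusted *P*-values in the text are from this test over the 8 libraries, unless a library is said to be left out. Those given with a difference of the log2 fold changes are from the interaction fit of all 32 libraries. Single values per library were compared by an exact permutation test over 70 assignments, which cannot go below 0.0286. The KO effect at P35 was tested against that at P21 as an interaction in a fit of all 32 libraries. At totals of 55211186 to 65108067 per library a gene at 3 counts or fewer cannot be told from absence, and a floor of 3 counts per library was used for a fold against 0. Reads carried no molecular identifiers in the methods, so counts may include PCR copies. No pair of replicates agreed within sampling noise. The fit of KO against WT over 8 libraries with TMM was checked on simulated counts with known changes. The interaction fit and the alternative settings were not checked in this way. Promoters and their motifs came from RefSeq (GRCm38.p6, 120 of 171 genes named by rule matched). Tables and figures used Python 3.11.15, pandas 2.3.3 and matplotlib 3.10.9.

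The comparison, gene lists and naming rule were chosen with earlier results of these data known. The rule takes 10 DEGs from each end of the log2 fold changes (groups apart, mean of the higher group at least 1 CPM), the 10 with the largest rise and fall in CPM, the 3 DEGs with the smallest adjusted *P* of each list and all members of lists of 15 or fewer, the 10 highest and 10 lowest interaction genes with a mean of at least 1 CPM, and *Mtm1*, *Dnm2*, *Bin1*, *Xist* and *Ddx3y*. Lists are described by counts and medians, with no set test. The alternatives were DESeq2 1.42.0, calls by both tools, RLE, upper quartile or library total scaling, removal of mitochondrially encoded genes, other filters, a test against a 1.5-fold change (glmTreat), all 32 libraries, the replicate number as a block and each library left out. Added after seeing the data were the share with the chromosome 1 copies of mitochondrial DNA, the share of abundant nuclear genes without such copies and the lists with each library left out. *Xist* did not pass the filter, *Ddx3y* was not called, and 3 list symbols were not matched. Some genes that the rule names are not reported here.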

Additional observations from a re-analysis of the deposited data

Results flagged for a closer look

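In 7 of 96 groups of 4 libraries 1 library lay far from the others by Dixon's criterion, and chance alone gives such a gap in about 1 in 20 groups. WT replicate 3 was the library for *B230312C02Rik* (21.01 CPM), *Hspb8* (212.4 CPM), *Bin1* (363.0 CPM) and *Gm3776* (0.0203 CPM, a single count where the other WT libraries held 0). The first 3 of these were low in that library. WT replicate 2 was high for *Myh7* (24.95 CPM). In KO, replicate 2 was low for *mt-Cytb* (11870 CPM) and replicate 4 was high for *mt-Nd2* (5934 CPM), both by a small amount next to the distance from WT.

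For 20 genes named by rule the KO effect at P35 was unlike that at P21, given here as the difference of the log2 fold changes in edgeR's quasi-likelihood fit of all 32 libraries. It was higher at P35 for *Myh7* (4.60), *Tnnt1* (3.54), *Tnnc1* (3.37), *Egr1* (3.36), *Myl2* (3.32), *Kcne1l* (3.16), *Tnni1* (2.83), *Nlrc3* (2.66), *Cx3cl1* (2.47) and *Sox11* (2.39). It was lower at P35 for *Lrtm2* (-4.78), *Chac1* (-2.88), *Cacna2d4* (-2.86), *Tph1* (-2.22), *Amd1* (-1.99), *Gm45338* (-1.98), *Kcng4* (-1.86), *Pm20d2* (-1.70), *Nos1* (-1.70) and *Tbc1d1* (-1.55). *Cacna2d4* and *Lrtm2* overlap on the genome. With only the 16 libraries of the 2 ages, 18 of the 20 did not pass the threshold.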

How the results depend on the processing

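The DEG count of 2496 stayed within 1.5 times under DESeq2 (2997), calls by both tools (2455), RLE (2536), upper quartile (2502), removal of mitochondrially encoded genes (2496) and with 1 library left out (1937 to 2450). It was 4676 with library totals (4350 higher, 326 lower) and 602 with glmTreat against 1.5-fold (379 higher, 223 lower). With mitochondrially encoded genes removed and library totals, 3346 were higher and 396 lower. The 86 interaction genes became 9 with only the 16 libraries of P21 and P35, 68 with library totals, and 37 to 116 with 1 library left out. The replicate block gave 2273 DEGs and 8 interaction genes. The labels do not tie replicate numbers to a shared animal or day, and the correlations of the deviations of libraries with the same number (0.236, -0.0995, -0.046 and 0.186) do not pair them. The difference in mitochondrially encoded share was -5.22 percentage points, -5.02 with the 13 mRNAs, -7.36 with the copies on chromosome 1, and -6.317 to -4.473 with 1 library left out, where *P* was 0.0571 without a KO library. Of 52 lists, 26 had a median above that of all genes (25 to 28 with 1 library left out), and 29 had a median above 0 (41 with library totals, where 12 changed sign). The difference in the share of the 10 most abundant nuclear genes (-3.59 percentage points) was -2.26 without the copies of mitochondrial DNA. *Ddx3y*, not called (log2 fold change -0.077), turned to 0.3281 with library totals, 0.2434 with mitochondrially encoded genes also removed and ranged from -0.1235 to 0.0003 with 1 library left out, the latter without WT replicate 1. Of the 43 genes named for P35, all kept their side of the threshold with DESeq2, RLE, upper quartile, no filter and all 32 libraries. The call was lost for 13 with glmTreat, 3 with the replicate block, 2 with library totals and 1 to 6 with each library left out. With 4 libraries a group, the depth limits genes near 3 counts, and the copies of mitochondrial DNA limit single mitochondrial genes.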

Other observations

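Glucocorticoid responsive genes gave 2 rises and 3 falls among 17 members (3 and 1 with library totals). These calls came to 1 higher without WT replicate 2, WT replicate 3, WT replicate 4, KO replicate 1 or KO replicate 3, 1 lower without WT replicate 1, WT replicate 3, WT replicate 4, KO replicate 2 or KO replicate 3 and 5 lower without KO replicate 1. Of the integrated stress response and mitokine list 2 of 28 rose and 2 fell (10 and 1 with library totals), near the shares of all genes. *Psat1* (1.22) of serine synthesis was up and *Shmt1* (-1.37) of folate metabolism down on the log2 scale. Of the dystrophin complex, integrins and membrane repair list 7 of 48 rose and 7 fell, and with library totals 19 rose and 0 fell. With 1 library fewer there were 4 higher without WT replicate 3. *Anxa1* was at 18.2, 17.9, 18.1 and 20.2 CPM (WT) against 41.7, 52.5, 50.3 and 42.7 CPM (KO) (log2 fold change 1.33, adjusted *P*=3.94e-05), and *Anxa2*, which with it seals damaged membranes, was at 39.5, 48.8, 43.6 and 44.0 CPM (WT) against 97.2, 112, 129 and 145 CPM (KO) (log2 fold change 1.46, adjusted *P*=9.34e-05). No WT library reached the KO range for either. Of 32 aminoacyl tRNA synthetases and translation paralogues 2 rose and 1 fell (8 and 0 with library totals).

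The serpin gene *Serpinb6a* had one of the 10 largest rises in CPM, at 141, 130.2, 93.9 and 174 CPM (WT) against 489, 390.2, 722 and 724 CPM (KO) (log2 fold change 2.11, adjusted *P*=0.000253). The pseudogene *Gm4813* was at 0.0625, 0, 0 and 0.0590 CPM (WT) against 0.915, 0.824, 2.80 and 1.68 CPM (KO) (adjusted *P*=0.000434), and *Gm3776*, a glutathione transferase gene close to *Gsta1* in sequence, was at 0, 0, 0.0203 and 0 CPM (WT) against 0.450, 0.721, 2.33 and 1.51 CPM (KO) (adjusted *P*=0.00036), so reads of *Gm3776* and *Gsta1* may be split between them. The tendon markers summed to 155 to 535 CPM in the WT libraries and 334 to 872 in KO, with WT replicate 3 the lowest of the 8 libraries.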
